A study of Mus musculus with 8 samples.

Results

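The 9 NADPH-producing enzymes G6pdx, Pgd, Idh1, Me1, H6pd, Idh2, Me2, Me3 and Nnt were measured in freshly sorted muscle stem cells (MuSCs) of mice fed a vitamin A-free (VA-free) diet or control chow for 8 weeks. The members were chosen by name as the classical dehydrogenases, malic enzymes and transhydrogenase that reduce NADP+. They are 9 of 35999 gene symbols with a transcript in the files, and all 9 were among the 17973 genes with enough counts to be tested. Every mouse carried Pax7CreERT2 and the Rosa26nTnG reporter, in which tamoxifen turns on a nuclear green fluorescent protein in cells that express Pax7. All of them, controls included, received 5 daily tamoxifen injections and were males of 5 to 6 months. Green nuclei therefore mark cells with Pax7-driven Cre activity at the time of tamoxifen, and the sort of gastrocnemius and quadriceps followed that mark. RNA came from 3 VA-free mice (mouse 3 with technical libraries A and B, mouse 1 with library B and mouse 2 with library A) and 2 control mice (each with libraries A and B).

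NADPH carries the electrons that cells spend on building fatty acids and sterols, on regenerating reduced glutathione and thioredoxin, and on NADPH oxidases. Each compartment has its own supply, because NADPH does not cross the membranes freely. In the cytosol G6pdx and Pgd form the oxidative pentose phosphate pathway, while Idh1 and Me1 draw NADPH from isocitrate and malate. In the lumen of the endoplasmic reticulum (ER) H6pd carries out the first reactions of the same pathway and supplies the enzyme Hsd11b1. In mitochondria Idh2 and the malic enzymes Me2 and Me3 are fed by the citric acid cycle, and Nnt moves hydride from NADH to NADP+ using the proton gradient. Me2 prefers NAD+ over NADP+ as its acceptor.

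The sequences before the start sites are shown for the members where one of the searched motifs was found, because several members are known targets of factors that read such motifs. RefSeq promoter windows of 300 bases (250 before and 50 after the start, GRCm38.p6) were at hand for 7 of the 9 members, in 10 windows, and Nnt and Me2 are named only. H6pd had the largest difference between diets, so the 250 bases before its RefSeq start are given whole, read on the minus strand of chr4:150003237-150003486, with a match to the nuclear receptor motif AGGTCA in capitals (here on the other strand).
H6pd: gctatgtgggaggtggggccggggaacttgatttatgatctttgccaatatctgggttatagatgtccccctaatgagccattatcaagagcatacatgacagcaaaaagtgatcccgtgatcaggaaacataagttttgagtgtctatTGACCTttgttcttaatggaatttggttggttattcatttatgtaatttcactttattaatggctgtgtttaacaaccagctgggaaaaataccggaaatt
That match began 101 bases before the start, and 16.3% of all 32851 RefSeq windows held the motif on either strand. This stretch lies between the starts of both main transcript models, before H6pd-202 and inside the span of H6pd-201. The core of the antioxidant response element, TGACNNNGC, was found in 3 of the 10 windows, of 3 of the 7 members, where 12.4% of all windows and 14.0% of all genes with a window held it. The 30 bases around each match follow, with the match in capitals. They lie on the minus strand at chrX:74428918-74428947 (G6pdx), chr4:149166060-149166089 (Pgd) and chr9:86695901-86695930 (Me1).
G6pdx: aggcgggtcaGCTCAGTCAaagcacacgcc
Pgd: atttcagagcTGACATTGCactgatcggac
Me1: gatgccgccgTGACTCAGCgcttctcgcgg
The G6pdx match (read on the other strand) began 57 bases before the RefSeq start, the Me1 match 6 bases before it and the Pgd match at base 4 after it. For Pgd this RefSeq start is a downstream one inside the span of the main model Pgd-201. The other Pgd window, at the start of Pgd-201 (chr4:149166656-149166955), held no match. The G6pdx and Me1 matches also lie inside the spans of the main models, G6pdx-201 and Me1-201, after the annotated starts of these models. The E-box CACGTG, held by 7.15% of windows, and a direct repeat of AGGTCA with 5 bases between its copies, held by 3 windows of all genes, were in none of the 10 windows. All matches were searched on both strands, and no measurement of binding bears on them here.

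The libraries held 44831232 to 88650428 estimated counts. Levels are given as CPM, counts relative to the library's total, scaled by the trimmed mean of M values (TMM), which compare diets for 1 gene, and as TPM, transcript levels corrected for length, used to compare genes within a library. Libraries A and B of control mouse 2 stood apart from each other, with a root mean square difference of 0.871 on the log2 scale across genes. It was 0.458 for control mouse 1 and 0.229 for VA-free mouse 3. Library 2B differed from control libraries 1A and 1B by 0.451 and 0.493, and library 2A by 0.785 and 0.924. Library 2A was thus the one away from the other controls, and both libraries were added for mouse 2. The sorted cells expressed the MuSC markers in both diets, but markers of other cells also differed, with values that apply to every comparison between diets here. For scale, 18.9% of all tested genes were called higher on the VA-free diet and 22.6% lower. Of 12 MuSC markers 11 were higher on the VA-free diet and 0 lower, with a summed level of 8337 to 9234 CPM against 2724 to 5397 CPM. All 11 endothelial markers were lower (258 to 350 against 1253 to 3261 CPM), as were all 7 Schwann cell markers (37.8 to 47.7 against 304 to 620 CPM) and 4 of 5 tenocyte markers (38.3 to 62.3 against 592 to 1066 CPM). Of 10 fibro-adipogenic progenitor markers 7 were lower, although their sum was higher (11591 to 12661 against 4054 to 9743 CPM) through Col3a1, the 1 member called higher. Lower calls also came for 5 of 9 pericyte and smooth muscle markers (1 was higher, sum 1748 to 2032 against 2754 to 3382 CPM), 4 of 10 macrophage markers (27.7 to 165 against 192 to 963 CPM), 5 of 10 myofiber markers (334 to 428 against 481 to 611 CPM) and 4 of 5 erythroid markers (28.8 to 243 against 1302 to 1909 CPM). Of 7 adipocyte markers 3 were abundant enough to test and 0 were called (0.811 to 1.34 against 0.978 to 4.03 CPM), and Lep was at 0 in every library. The part of these cell markers in the differences below was not tested, and in bulk samples fewer cells of a type and less RNA per cell cannot be told apart.

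The test asked whether the level of each enzyme differed between the diets. Per the study's methods, the VA-free food was a custom product, while controls stayed on standard chow. Each contrast therefore takes in any other difference between these foods, and the part of vitamin A alone was not tested. H6pd, Me3, Pgd and Nnt rose on the VA-free diet and no member fell. The 4 called members are 44.4% of the 9, against 41.5% of all tested genes called in either direction and 18.9% called higher, so the share of members called was close to that of all genes. The members had 6 log2 fold changes above 0 and 3 below, with a median of 0.37 against 0.0029 over all tested genes. For 7 members no mouse of either diet fell within the range of the other diet, as was the case for 63.3% of tested genes. All libraries of the diets were apart for 3 members (H6pd, Me3 and Nnt), against 41.3% of tested genes. By compartment, 1 of the 4 cytosolic members rose (median log2 fold change -0.04), the ER member rose, and 2 of the 4 mitochondrial members rose (median 0.28).

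**Figure D1:**
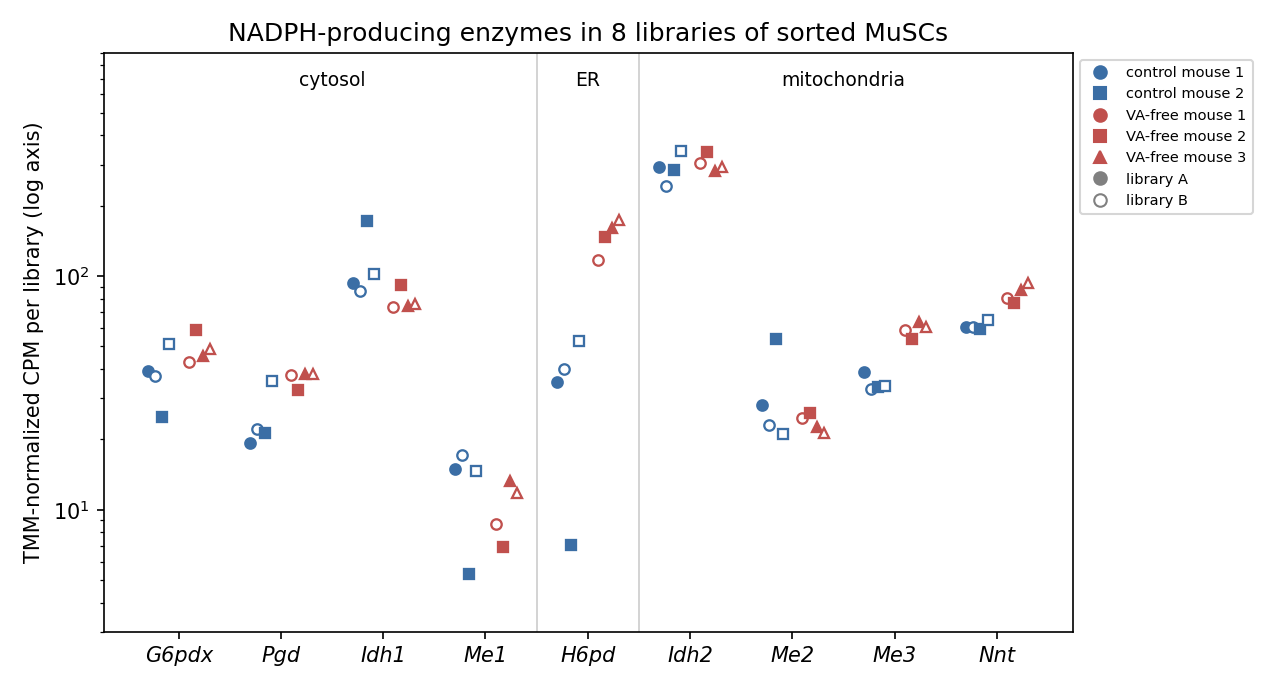
TMM-normalized CPM (log axis) of the 9 enzymes, grouped by compartment, with 1 point per library (control left in blue, VA-free right in red, shape for the mouse, filled for library A and open for library B). The H6pd, Me3 and Nnt points of the diets do not overlap, and library A of control mouse 2 is the lowest for H6pd (7.09 CPM) and the highest for Idh1 (172 CPM) and Me2 (53.7 CPM).

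H6pd (ENSMUSG00000028980.14, chr4:149979475-150009023, minus strand), the enzyme of the ER lumen, had the largest difference of the 9. Its levels were 118, 147, 160 and 174 CPM in libraries 1B, 2A, 3A and 3B of the VA-free mice and 35.0, 39.9, 7.09 and 52.5 CPM in libraries 1A, 1B, 2A and 2B of the control mice. Every VA-free library was above every control library, and library A of control mouse 2 was far below library B of the same mouse. The mean was 146 ± 24.7 CPM (SD, n = 3 mice) against 34.3 ± 6.03 CPM in controls (SD, n = 2 mice). The fold change was 4.25, a log2 fold change of 2.09 with a standard error of 0.20 (edgeR quasi-likelihood test, Benjamini-Hochberg adjusted p = 0.000448), higher than that of 98.2% of tested genes. Since 1 control library was so low, the size depended on it. The log2 fold change was 1.68 without library 2A and 2.66 without library 2B (edgeR adjusted p = 0.0475), and it was past the threshold in all 24 alternative analyses. Both main protein-coding models carried the RNA, with 46.2% to 53.0% of H6pd TPM on H6pd-201 in the VA-free libraries and 26.4% to 54.2% in control libraries.

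Over all tested genes 18.9% were called higher and 22.6% lower. Of the 3 genes known as partners of H6pd in the ER 0 were higher and 1 was lower. Hsd11b1, which uses its NADPH to regenerate active glucocorticoid, had a log2 fold change of 0.13 (edgeR adjusted p = 0.549), and G6pc3, a phosphatase that hydrolyses glucose 6-phosphate in the ER, fell by 0.42 on the log2 scale (edgeR adjusted p = 0.0293). This call held in 12 of 24 alternatives. It was lost without any 1 VA-free mouse, without control mouse 2 (-0.35, edgeR adjusted p = 0.0655) and without control library 1A (-0.40, edgeR adjusted p = 0.0666) or 2B (-0.53, edgeR adjusted p = 0.0822), and with the trend of fold change on gene length removed the value was 0.10.

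G6pdx (ENSMUSG00000031400.10, chrX:74409483-74429194, minus strand) is the cytosolic counterpart of H6pd and sets the pace of the pentose phosphate pathway. It was measured at 43.0, 58.7, 45.3 and 48.5 CPM in the VA-free libraries (1B, 2A, 3A and 3B) and at 39.2, 37.4, 25.0 and 51.4 CPM in the control libraries (1A, 1B, 2A and 2B). The libraries of the diets overlapped, since control library 2B was above 3 of the VA-free libraries. Its log2 fold change of 0.37 with a standard error of 0.15 did not pass the threshold (edgeR adjusted p = 0.0933). G6pdx shares 418 exon bases with the antisense gene Ikbkg, and the kit does not keep the strand, so reads of the overlap could not be assigned by strand. Of G6pdx TPM 86.0% to 93.6% was on protein-coding models in the VA-free libraries and 96.2% to 100% in controls, the rest being on a processed transcript and a retained intron.

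Within a library, TPM of H6pd relative to G6pdx was 1.23 to 1.73 on the VA-free diet and 0.154 to 0.518 in controls. H6pd thus stood above G6pdx in every VA-free library and below it in every control library. This ratio was not tested.

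Pgd (ENSMUSG00000028961.15, chr4:149149991-149166771, minus strand) follows G6pdx and yields the other NADPH of the oxidative branch. It was at 37.6, 32.4, 38.1 and 38.3 CPM in VA-free libraries 1B, 2A, 3A and 3B and at 19.3, 22.2, 21.3 and 35.4 CPM in control libraries 1A, 1B, 2A and 2B. Control library 2B reached into the VA-free range, and the other 3 control libraries lay below it. The mean was 36.5 ± 3.49 CPM (SD, n = 3 mice) against 24.6 ± 4.56 CPM (SD, n = 2 mice), a log2 fold change of 0.57 with a standard error of 0.17 (edgeR adjusted p = 0.0306). The call was lost without VA-free mouse 1 (log2 fold change 0.54, edgeR adjusted p = 0.0973), without VA-free mouse 3 (0.53, edgeR adjusted p = 0.0956), without control mouse 1 (0.39, edgeR adjusted p = 0.0865) and without control library 2A (0.36, edgeR adjusted p = 0.233).

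Of the 7 tested genes for other enzymes of the pentose phosphate pathway 0 were higher and 3 were lower, with a median log2 fold change of -0.43 where all tested genes had 0.0029 and 22.6% of them were called lower. Pgls, which hydrolyses the lactone between G6pdx and Pgd, fell by 0.58 on the log2 scale (edgeR adjusted p = 0.0150). Taldo1, the transaldolase of the non-oxidative branch, fell by 0.78 (edgeR adjusted p = 0.00181), and the third lower gene, the transketolase Tkt, fell by 0.74 (edgeR adjusted p = 0.0202). Without control library 2B the calls of Pgls (-0.53, edgeR adjusted p = 0.108) and Tkt (-0.54, edgeR adjusted p = 0.293) were lost, and so they were without VA-free mouse 1 (edgeR adjusted p = 0.0606 and 0.0747). Tkt was also lost without VA-free mouse 3 (edgeR adjusted p = 0.0689) or control mouse 1 (edgeR adjusted p = 0.0826). With the length trend removed, none of the 3 passed, Pgls was at 0.14 and the median of the list was -0.17. G6pd2, a retrogene copy of G6pdx, was too low to test.

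Idh1 (ENSMUSG00000025950.16, chr1:65158616-65186500, minus strand), the cytosolic isocitrate dehydrogenase, was at 73.7, 91.9, 74.4 and 75.7 CPM in the VA-free libraries (1B, 2A, 3A and 3B) and at 93.1, 86.3, 172 and 102 CPM in the control libraries (1A, 1B, 2A and 2B). VA-free library 2A overlapped control library 1B, and control library 2A was the highest. The log2 fold change was -0.46 with a standard error of 0.17 (edgeR adjusted p = 0.0724). Without control mouse 1, which leaves 1 control mouse, it was -0.69. It passed in 3 of 24 alternatives, among them DESeq2 (-0.48, adjusted p = 0.0451). Over the 24 the value ran from -0.73 to -0.012. Mean TPM of Idh1 over the libraries was 68.0 on the VA-free diet and 70.4 in controls.

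Me1 (ENSMUSG00000032418.15, chr9:86581371-86695953, minus strand), the cytosolic malic enzyme that feeds fatty acid synthesis, was the least abundant member in 7 of 8 libraries. It was at 8.73, 6.91, 13.3 and 11.8 CPM on the VA-free diet and at 15.0, 17.1, 5.30 and 14.7 CPM in controls, in the same library order. The control range enclosed the VA-free range because of library 2A, and the log2 fold change of -0.47 with a standard error of 0.32 was not called (edgeR adjusted p = 0.282). The citrate and malate supply of the cytosolic enzymes had 0 of 7 genes called, against 41.5% of all tested genes. Acly, ATP citrate lyase, had a log2 fold change of 0.11 (edgeR adjusted p = 0.521).

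**Figure D2:**
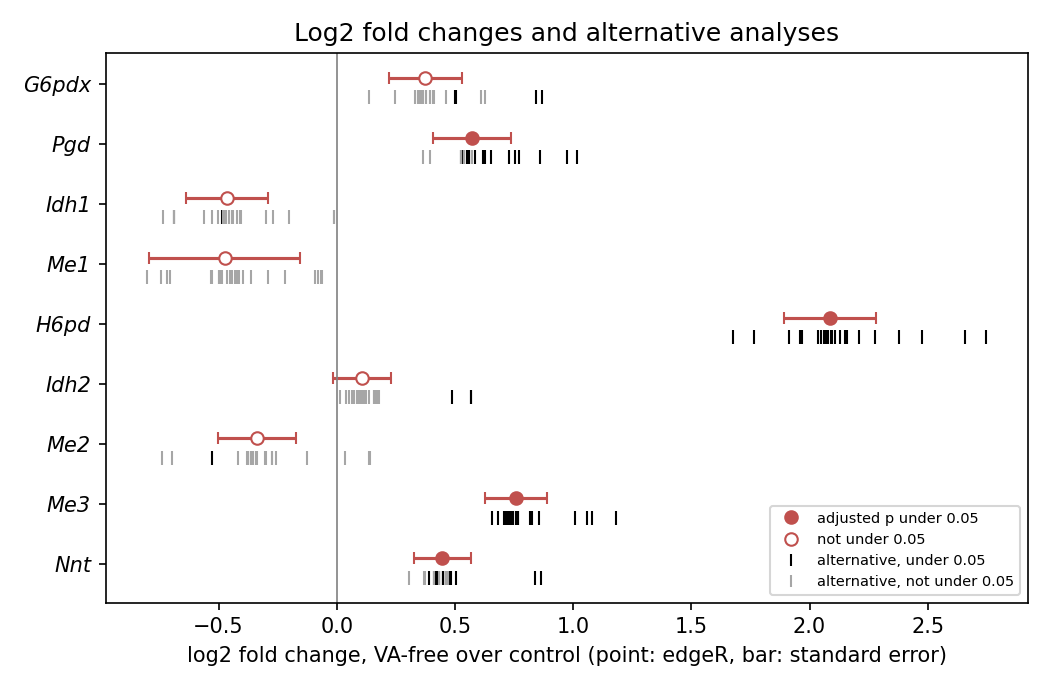
Log2 fold change (VA-free over control) of each enzyme with its standard error from edgeR on 5 mice (filled where the adjusted p was under 0.05), and below each point the values of 24 alternative analyses as ticks (black where under 0.05). H6pd and Me3 are right of 0 with black ticks throughout, and Me2 has ticks on both sides of 0.

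In mitochondria, Me3 (ENSMUSG00000030621.17, chr7:89632392-89854359, plus strand), an NADP+-linked malic enzyme, was higher in every VA-free library than in any control library. Its levels were 59.0, 53.7, 63.7 and 60.2 CPM in VA-free libraries 1B, 2A, 3A and 3B and 38.7, 32.9, 33.6 and 33.7 CPM in control libraries 1A, 1B, 2A and 2B. Control libraries 2A and 2B, which were apart for H6pd, were close to each other here. The mean was 58.9 ± 4.59 CPM (SD, n = 3 mice) against 34.9 ± 3.34 CPM (SD, n = 2 mice), a log2 fold change of 0.76 with a standard error of 0.13 (edgeR adjusted p = 0.00400). It passed the threshold in all 24 alternatives.

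Most Me3 RNA was not assigned to the model that encodes the full enzyme. Me3-202, the protein-coding model, held 5.52% to 7.73% of Me3 TPM in VA-free libraries and 3.92% to 7.70% in controls. The rest lay mostly on Me3-201 (a processed transcript with 94.8% of its bases in exons of Me3-202), Me3-203 (a retained intron model, 77.8% shared) and Me3-206 (a processed transcript, 55.1% shared). On Me3-202 alone the level was 3.84 to 5.32 TPM on the VA-free diet and 1.50 to 2.17 TPM in controls, with no overlap. When protein-coding models alone were summed for every gene, an analysis chosen after the data were seen, the log2 fold change of Me3 was 1.01 (edgeR adjusted p = 0.00990). Reads of shared exons were divided between the models by estimation, so these shares are less certain than the sum. Me3 also shares 569 exon bases with the antisense gene A230065N10Rik, which was not counted here. Since the kit does not keep the strand, any reads of that gene over these bases could have been counted as Me3. Their part was not tested.

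**Figure D3:**
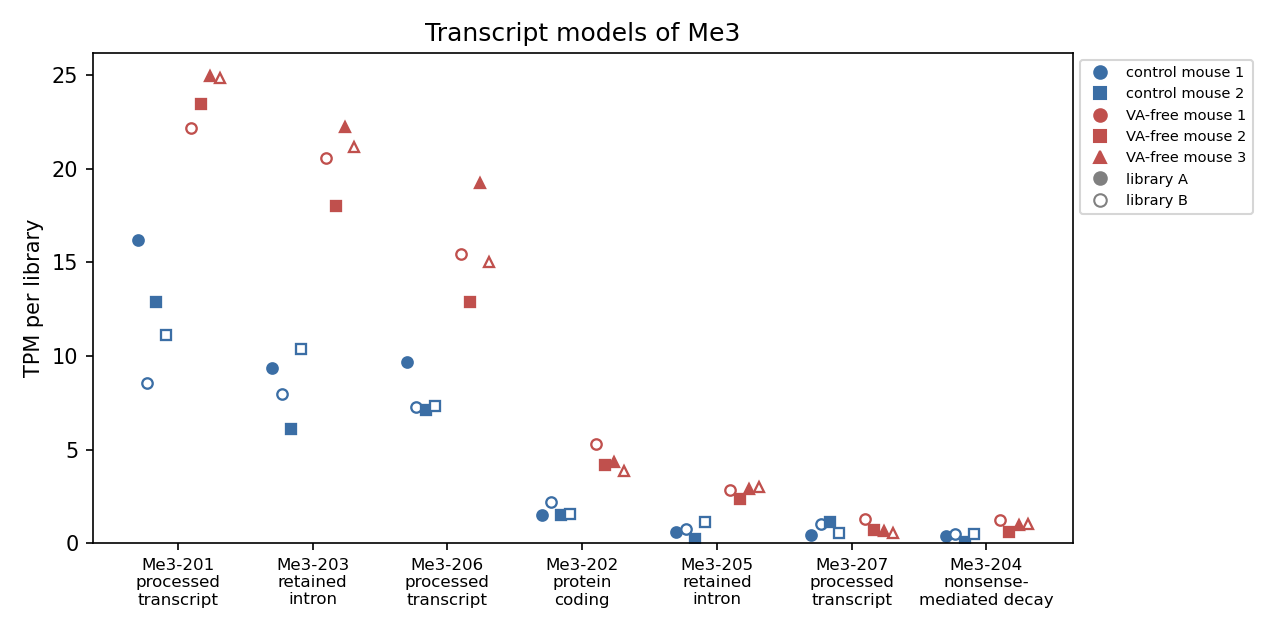
TPM per library of the 7 transcript models of Me3 (control blue, VA-free red, shape for the mouse, filled for library A). The protein-coding model Me3-202 is at 3.84 to 5.32 TPM in VA-free and 1.50 to 2.17 TPM in control libraries, well under Me3-201 and Me3-203.

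Nnt, the transhydrogenase of the inner membrane, was annotated under 2 overlapping gene identifiers (ENSMUSG00000025453.18, chr13:119335448-119408997, and ENSMUSG00000116207.1, chr13:119335528-119408952, both on the minus strand), which were summed. It was at 80.2, 76.8, 87.5 and 93.3 CPM in VA-free libraries 1B, 2A, 3A and 3B and at 60.7, 60.3, 59.4 and 64.5 CPM in control libraries 1A, 1B, 2A and 2B. All VA-free libraries were above all control libraries, which lay close together. The mean was 83.6 ± 7.53 CPM (SD, n = 3 mice) against 61.3 ± 1.82 CPM (SD, n = 2 mice), a log2 fold change of 0.45 with a standard error of 0.12 (edgeR adjusted p = 0.0232). The call was lost without VA-free mouse 1 (0.46, edgeR adjusted p = 0.0664), VA-free mouse 3 (0.37, edgeR adjusted p = 0.0908), control mouse 2 (0.41, edgeR adjusted p = 0.0606) or control library 2B (0.43, edgeR adjusted p = 0.107), while the direction held. Nnt-206 and Nnt-202, each of 17 exons with 15 identical in both, together held 96.9% to 98.4% of Nnt TPM in VA-free and 92.7% to 98.8% in control libraries. The C57BL/6J strain, from which the reference comes, is known to lack internal exons of Nnt. Reads from those exons would not be counted, and the strain of these mice is not given in the sources used here.

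Idh2 (ENSMUSG00000030541.16, chr7:80094846-80115392, minus strand), the mitochondrial isocitrate dehydrogenase, was the most abundant member in all 8 libraries and held 47.6% to 52.7% of the TPM of the 9 in VA-free and 51.0% to 57.2% in control libraries. It was at 304, 339, 282 and 293 CPM on the VA-free diet and at 291, 242, 286 and 343 CPM in controls. These CPM ranges overlapped almost fully, and the log2 fold change was 0.11 with a standard error of 0.12 (edgeR adjusted p = 0.525). By TPM on all models Idh2 was at 313 to 377 on the VA-free diet and 203 to 309 in controls, without overlap. On protein-coding models the TPM ranges overlapped, at 293 to 357 against 192 to 295. Me2 (ENSMUSG00000024556.4, chr18:73769903-73815449, minus strand) was at 24.8, 25.9, 22.6 and 21.2 CPM against 28.0, 23.1, 53.7 and 21.1 CPM. Its log2 fold change of -0.34 with a standard error of 0.17 was not called (edgeR adjusted p = 0.150). Control library 2A set this direction, since without it the log2 fold change was 0.03, and without control mouse 1 the value was -0.53 and passed (edgeR adjusted p = 0.0312).

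Of the 6 tested genes for NAD+-linked counterparts of these enzymes 1 was higher and 3 were lower, with a median log2 fold change of -0.40. Over all tested genes 18.9% were called higher and 22.6% lower, with a median of 0.0029. The list includes the glutamate dehydrogenase Glud1, which can use either cofactor. The malate dehydrogenases Mdh1 of the cytosol and Mdh2 of the mitochondria had log2 fold changes of -0.96 and -0.97 (edgeR adjusted p = 0.000959 and 0.00274). Mdh2 was at 961 CPM in control library 2A and at 388 to 470 CPM in the other control libraries. Without library 2A the values of Mdh1 and Mdh2 were -0.89 and -0.60, and without library 2B they were -1.11 and -1.37. Both genes passed the threshold each time. Idh3g, a subunit of the NAD+-linked isocitrate dehydrogenase, fell by 0.58 (edgeR adjusted p = 0.0109). Glud1 rose by 0.43 (edgeR adjusted p = 0.0196). The sign of the list's median was not stable, since it was 0.034 with the length trend removed and 0.046 on log2(TPM + 1), where Mdh1 still passed and Mdh2 and Idh3g did not. Without control library 2B, Idh3g (-0.57, edgeR adjusted p = 0.0632) and Glud1 (0.38, edgeR adjusted p = 0.120) lost their calls, as Glud1 did without any 1 VA-free mouse (edgeR adjusted p = 0.0537 to 0.0776).

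Within a library, Idh2 stood higher over Idh1, and Me3 over Me2, on the VA-free diet than in controls. Idh2 was 4.87 to 5.56 times Idh1 by TPM in VA-free libraries and 2.22 to 4.25 times in controls, and Me3 was 3.24 to 4.74 times Me2 against 1.14 to 2.57 times. Neither pair of ranges overlapped. These ratios take in all transcript models. On protein-coding models alone Me3 was below Me2 in every library, at 0.254 to 0.313 times Me2 in VA-free and 0.0640 to 0.190 times in control libraries. Me3 relative to Me1 was 7.62 to 12.0 against 3.16 to 10.4 on all models and 0.654 to 1.26 against 0.275 to 0.963 on protein-coding models, and Pgd relative to G6pdx 0.572 to 0.876 against 0.545 to 1.00, all with overlap. On all models, the cytosolic members made up 20.9% to 21.9% of the TPM of all 9 on the VA-free diet and 24.0% to 29.6% in controls, H6pd 7.06% to 10.1% against 0.451% to 3.16%, and the mitochondrial members 67.9% to 72.1% against 70.0% to 73.6%. The cytosolic and ER shares of the diets were apart, and the mitochondrial shares overlapped. No test was made on these ratios and shares, which libraries of 1 mouse share.

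**Figure D4:**
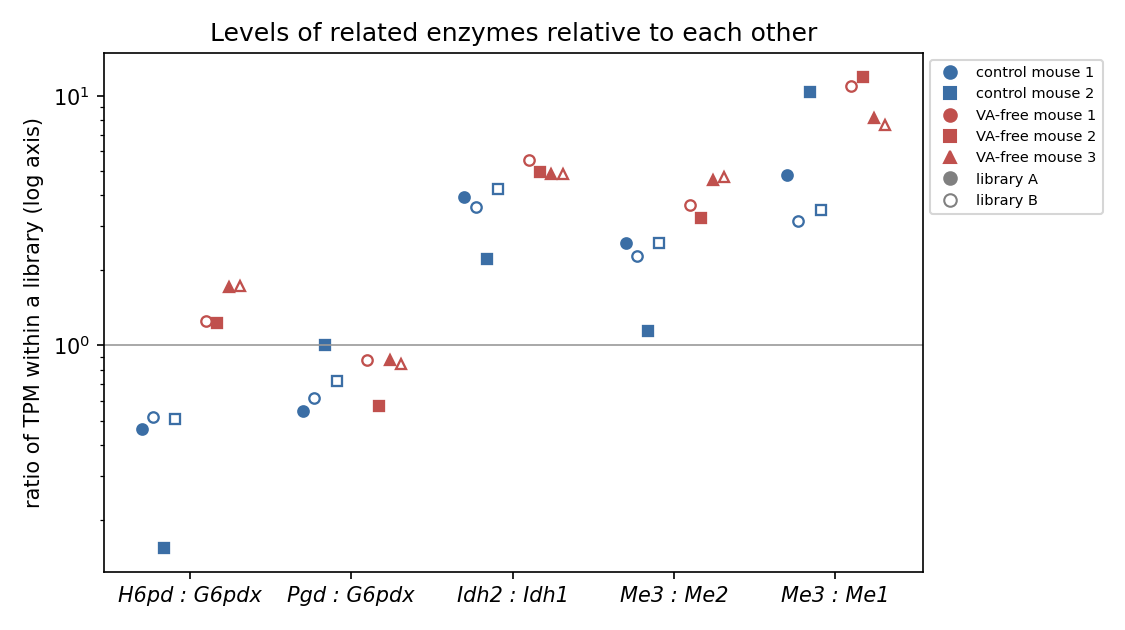
Ratio of TPM (all transcript models) between related enzymes within each library (log axis, line at 1), control in blue and VA-free in red. H6pd to G6pdx lies above 1 in all 4 VA-free libraries (1.23 to 1.73) and below 1 in all 4 control libraries, and the ratios of Pgd to G6pdx and of Me3 to Me1 overlap.

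By TPM on all models, the order of the members below Idh2 differed between the diets mainly through H6pd. In VA-free libraries Me3 (62.2 to 75.3 TPM), Idh1 (63.9 to 76.3 TPM) and H6pd (48.8 to 68.1 TPM) overlapped, H6pd also with Nnt (42.1 to 50.8 TPM), and Nnt with G6pdx (36.8 to 47.5 TPM), with Pgd (27.2 to 33.8 TPM), Me2 (14.7 to 19.2 TPM) and Me1 (5.20 to 9.18 TPM) below them in that order without overlap. In control libraries Idh1 (56.4 to 93.1 TPM) was second and did not overlap Me3 (28.2 to 38.2 TPM). H6pd, at 1.83 to 17.1 TPM, overlapped G6pdx, Pgd, Me2 and Me1 there, at rank 7 to 9 of the 9 against rank 3 to 4 on the VA-free diet. The place of Me3 in this order rests on its non-coding models, since on protein-coding models it was at 3.84 to 5.32 TPM in VA-free and 1.50 to 2.17 TPM in control libraries, below Me2 (13.8 to 17.9 and 11.4 to 23.8 TPM) and in the range of Me1 (3.29 to 6.60 and 1.58 to 6.50 TPM).

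The wider set of genes around NADPH was read from 10 lists with 73 tested genes. Of these 9 were higher (12.3%, against 18.9% of all tested genes) and 16 lower (21.9% against 22.6%), and 48 were not called. This balance turned with the scaling. With the length trend removed 17 were higher and 8 lower, and on log2(TPM + 1) 33 were higher and 9 lower, while over all tested genes these settings called 21.2% and 32.2% higher and 13.9% and 14.7% lower. Of the 25 calls, 14 held whichever mouse or library was left out, and 7 held in all 24 alternatives. Of the 8 genes listed for folate-linked NADPH production 2 were higher and 0 lower (median log2 fold change 0.37). These were Mthfd1l, the mitochondrial formate synthetase, with a log2 fold change of 0.81 (edgeR adjusted p = 0.0361), and the cytosolic serine hydroxymethyltransferase Shmt1 with 0.40 (edgeR adjusted p = 0.0483). Leaving out 1 mouse or library ended the call of Mthfd1l in 6 cases and that of Shmt1 in 9. Without control library 2B Mthfd1l was at 0.86 (edgeR adjusted p = 0.0900) and Shmt1 at 0.36 (edgeR adjusted p = 0.185), and over the alternatives Mthfd1l passed in 16 of 24 and Shmt1 in 7. The most abundant genes of this list, Mthfd1 and Shmt2, had 0.50 and 0.41 without passing the threshold (edgeR adjusted p = 0.0751 and 0.0579). Mthfd2, Mthfd2l, Aldh1l1 and Aldh1l2 were not called either (edgeR adjusted p = 0.856, 0.831, 0.0544 and 0.617). Of 10 genes of NAD and NADP supply 1 rose and 1 fell. Nmnat2, an adenylyltransferase that makes NAD, rose by 1.32 (edgeR adjusted p = 0.00169) and the nicotinamide riboside kinase Nmrk1 fell by 0.61 (edgeR adjusted p = 0.0381). Nmnat2 passed in all 24 alternatives. Nmrk1 passed in 10 and was lost in 7 of the cases that left out 1 mouse or library, among them control library 2A (-0.54, edgeR adjusted p = 0.0585) and 2B (-0.76, edgeR adjusted p = 0.0640). Nadk, the kinase that turns NAD into NADP, had 0.33 and Nampt, which salvages nicotinamide, -0.11, and neither was called (edgeR adjusted p = 0.123 and 0.504).

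Among the users of NADPH, the diets differed in both directions. Of 11 genes of synthesis and reduction 4 rose and 3 fell (median 0.22), where 18.9% of all tested genes were called higher and 22.6% lower. Fatty acid synthase, Fasn, rose by 1.98 on the log2 scale (edgeR adjusted p = 0.000333), and the aldose reductase Akr1b3 by 0.47 (edgeR adjusted p = 0.0254), a call lost without control library 2A (0.38, edgeR adjusted p = 0.0708) or 2B (0.49, edgeR adjusted p = 0.0884), without control mouse 1 (0.36, edgeR adjusted p = 0.0670) and without any 1 VA-free mouse (edgeR adjusted p = 0.0529 to 0.0941). Por, which passes electrons to cytochrome P450 enzymes, was also among the higher genes (0.80, edgeR adjusted p = 0.00828), though not without control library 2B (0.99, edgeR adjusted p = 0.0600). The quinone reductase Nqo1 fell by 2.51 (edgeR adjusted p = 0.000920), and the lower genes also included Cbr1 and Blvrb (-0.77 and -0.59, edgeR adjusted p = 0.00241 and 0.00982). Cbr1 was at -0.12 and Blvrb at 0.12 once the length trend was removed, and neither passed. Of the 4 reductases of glutathione and thioredoxin 1 rose, Txnrd1 (1.16, edgeR adjusted p = 0.00107), while Txnrd3 had 0.23 and was not called (edgeR adjusted p = 0.487). Tkt, Idh3g, Shmt1, Por, Cbr1 and Blvrb fell outside the rule for named genes and were added after their values were seen.

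Of 9 tested genes of the NADPH oxidases 0 were higher and 4 lower, with a median log2 fold change of -1.74. Over all tested genes 22.6% were lower, and on log2(TPM + 1) the median of the list was -0.80. Cyba, the membrane subunit shared by several oxidases, fell by 2.14 (edgeR adjusted p = 0.000223), and the cytosolic subunit Ncf4 fell by 2.94 (edgeR adjusted p = 0.0101). Ncf4 was very low, at a mean of 0.339 CPM on the VA-free diet and 2.56 CPM in controls. Its call was lost with the first library of each mouse (-3.19, edgeR adjusted p = 0.0743). Nox4, a constitutively active oxidase added after its value was seen, fell by 1.74 (edgeR adjusted p = 0.00287), at a low mean of 1.45 against 4.83 CPM. The Nox4 call was lost on protein-coding models (-2.52, edgeR adjusted p = 0.170) and with the first library of each mouse (-1.76, edgeR adjusted p = 0.0502). Ncf4 is known from phagocytes. Of the 10 macrophage markers 4 were lower and 0 higher. The others were not called, among them Csf1r and Mrc1 with log2 fold changes of 0.07 and 0.44 (edgeR adjusted p = 0.958 and 0.830). The part of these markers was not tested. Of 8 regulators known for the members 0 rose and 1 fell, Tigar (-1.31, edgeR adjusted p = 0.00871), a phosphatase that favours the pentose phosphate pathway. Nfe2l2, which binds antioxidant response elements, had -0.25 and Myc 0.48, and neither was called (edgeR adjusted p = 0.400 and 0.0527).

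**Figure D5:**
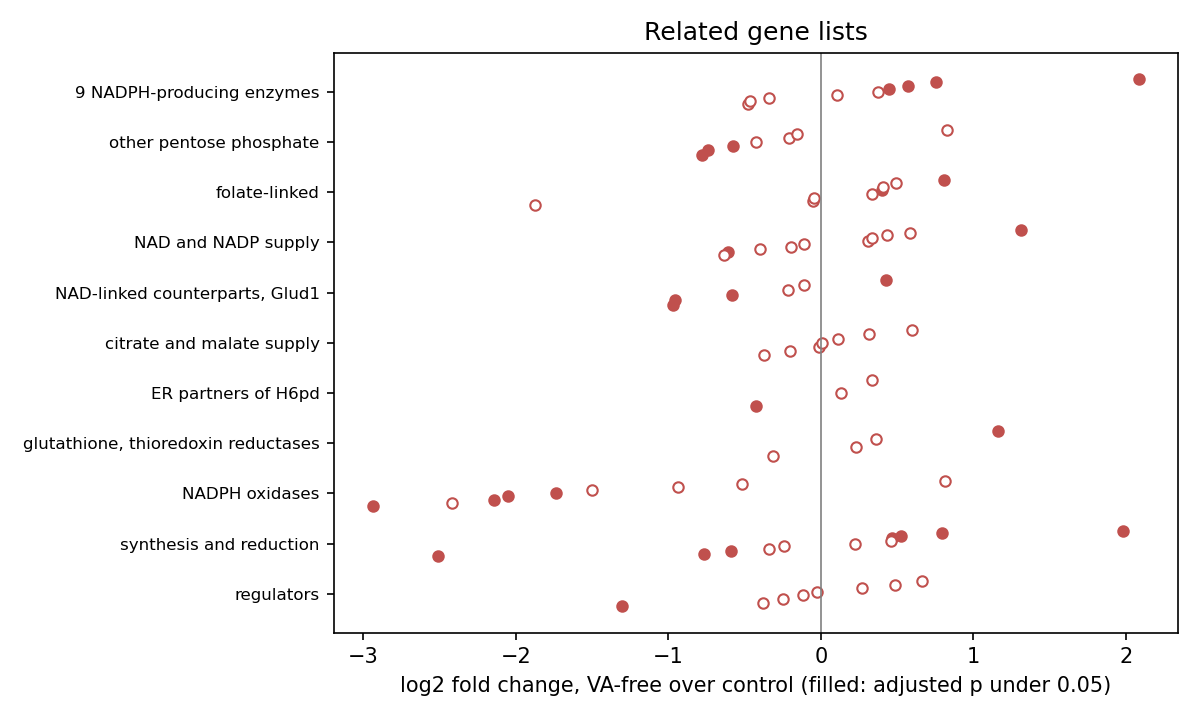
Log2 fold change (VA-free over control) of the tested genes of 10 related lists and of the 9 enzymes, 1 point per gene, filled where the edgeR adjusted p was under 0.05. The pentose phosphate list has 3 filled points left of 0 and none to the right, the NADPH oxidases 4 to the left, and the 9 enzymes 4 to the right.

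The genes whose levels ran most like each member were found by Pearson's r of log2 CPM over the 8 libraries, among the 9542 genes whose mean level reached 10 CPM. Among them were, for H6pd, Dpp9 (0.999), Sec61a1 (0.998) and Map1s (0.998), for Me3 Noc4l (0.989) and Zbtb11 (0.984), for Nnt Cenpb (0.990), and for Pgd Fads3 (0.982). The closest genes to the other members were Iqgap3 for G6pdx (0.966), Asf1b for Idh1 (0.989), Tshz2 for Me1 (0.981), Ntmt1 for Me2 (0.994) and Dck for Idh2 (0.959). Among the members themselves the highest value was that of Me3 and Nnt (0.950), and H6pd and Idh1 ran opposite to each other (-0.889). Control library 2A was the lowest library for H6pd (7.09 CPM) and the highest for Idh1 (172 CPM), and no correlation was computed without it. The points share diet, mouse and depth, and these correlations are descriptions without a test.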

How the data were processed

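RNA of sorted nGFP+ MuSCs was made into cDNA with SMART-Seq v4 and Nextera XT, a kit that does not keep the strand, and read as 75-base single-end reads. Per the labels and the study's methods the authors quantified transcripts with kallisto 0.46.2 on Ensembl release 96 (GRCm38) and deposited, per library, estimated counts and TPM. Of 118489 transcripts 116816 were matched to gene symbols of GENCODE M21. Estimated counts were summed by symbol, technical libraries of a mouse were added, sums were rounded to whole numbers, and the 5 mice (3 VA-free, 2 control) were compared with the edgeR 4.0.16 quasi-likelihood test after filterByExpr and TMM, with Benjamini-Hochberg adjustment over 17973 genes and a threshold of 0.05. Transcripts without a symbol held 0.647% to 0.756% of counts. Libraries held 44831232 to 88650428 estimated counts. Labels give the mice as biological replicates. Alternatives used DESeq2 1.42.0, limma 3.58.1 and edgeR under other filters, scalings and samples. Code was tested on simulated data. Members and lists were chosen with earlier results of these data known. The related genes named are the 2 most abundant of each list and its largest called rise and fall. Some genes that these rules name are not reported here. Motif matches used RefSeq windows, and TPM was not used to test diets except as an alternative.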

Additional observations from a re-analysis of the deposited data

Results flagged for a closer look

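Single libraries lay far from the other 3 of their diet for 3 of the 18 sets of 4 libraries checked (9 enzymes in 2 diets), by the gap to the nearest library relative to the range. Chance alone flags about 1 set in 20, and the libraries A and B of a mouse are not independent. Pgd was low in library A of VA-free mouse 2 (32.4 CPM, against 37.6 to 38.3 CPM in the other VA-free libraries). In the same library Idh1 was high (91.9 CPM against 73.7 to 75.7 CPM). Me3 was high in library A of control mouse 1 (38.7 CPM against 32.9 to 33.7 CPM). Idh1 in VA-free library 2A overlapped control library 1B (86.3 CPM). The cause was not tested.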

How the results depend on the processing

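Of 24 alternatives per member, H6pd and Me3 passed the threshold in all 24, Pgd in 18, Nnt in 17, G6pdx in 4, Idh1 in 3, Idh2 in 3, Me2 in 1 and Me1 in 0, and only Me2 changed sign, in 3. Idh1 passed with DESeq2 (-0.48) and with every gene of at least 1 count (-0.49), and over the 24 it ran from -0.73 to -0.012. Pgd did not pass with 8 libraries as separate samples (0.57), and Nnt did not with the first library of each mouse (0.47). With the loess trend on gene length removed, Nnt did not pass (0.30), while G6pdx (0.50) and Idh2 (0.49) did. Across genes the log2 fold change rose with length (Spearman's rho 0.377). G6pdx also passed with length offsets (0.50), and in limma on log2(TPM + 1) and log2(TPM + 0.1) G6pdx (0.84 and 0.87) and Idh2 (0.57 and 0.57) passed and Me2 turned to 0.13 and 0.14. Those scalings moved the median of all genes from 0.0029 to 0.192 and 0.353, and the removal of the length trend moved it to 0.182. Without control technical replicate 2A, Me2 also turned to 0.034. With the replicate block, 2 members were called, with Pgd at 0.54 and Nnt at 0.37, and 5253 genes in place of 7451. Mice of the same number in both diets did not deviate together (correlations -0.0204 and 0.00719). The deviations of the 2 control mice from their mean mirror each other, so these values cannot settle whether the numbers mark pairs. VA-free mouse 3 has no control of its number, so with the block it does not add to the comparison of the diets. Over all genes, 3396 higher and 4055 lower calls became 3805 and 2497 with the length trend removed, 5792 and 2635 on log2(TPM + 1) and 5856 and 2629 on log2(TPM + 0.1). Calls in the related lists went from 25 to 16 with the first library of each mouse, 42 and 40 with TPM and a pseudocount of 1 or 0.1, and 16 with the block. Leaving out 1 mouse or library gave 2 to 5 members called, 4473 to 7733 genes called (4473 without library 2B of control mouse 2), 14 to 28 related genes called, and log2 fold changes of 0.36 to 0.77 for Pgd, 0.37 to 0.50 for Nnt, -0.73 to -0.20 for Idh1 and -0.74 to 0.034 for Me2. The cause was not tested.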
